A study of Mus musculus with 17 samples.

Results

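Mouse embryonic stem cells after 4 days in LFAI were compared with cells of the same lines kept in LIM, across all genes counted in 4 of the series' 17 RNA-seq libraries. The comparison was chosen with earlier results of these data known, and its 4 libraries were taken by their labels. They belong to a set of 8 libraries in which lines R1 and CGR8 each give 1 library per condition. LFAI is serum-free N2B27 with LIF, FGF2 (12 ng/ml), Activin A (20 ng/ml) and IWP2 (2 uM), and both LFAI cultures came out of 2i, that is LIF with PD325901 and CHIR99021, and were harvested on day 4. LIM is the same base medium with LIF, IWP2 (2 uM) and PD325901 (0.1 uM). LIF and IWP2 were thus shared by both groups, as was a coating of gelatin and basement membrane extract. Before harvest the LFAI cells had spent 3 (R1) and 9 (CGR8) passages in 2i. The LIM cells had spent 5 passages in 2i in each line, then 4 (R1) or 6 (CGR8) passages in LIM. Total passage numbers were 26 and 33 in LFAI, against 30 and 34 in LIM. The medium and the time since 2i therefore change together between these groups and cannot be told apart in these 4 libraries. No allele or transgene is named for either line.

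FGF2 acts through FGF receptors on RAS, MEK and ERK, and PD325901 blocks MEK. Activin A signals to SMAD2 and SMAD3, the branch that Nodal also uses. IWP2 blocks Porcupine, the enzyme that lets cells secrete Wnt ligands, and LIF acts through STAT3. In mouse embryonic stem cells, MEK inhibition with LIF is known to sustain the naive state of the preimplantation epiblast, while FGF and Activin favour the primed state of the postimplantation epiblast.

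The 4 libraries held 15298852 to 16304195 reads assigned to genes and detected 19301 to 21587 genes, and 47.7 to 51.5% of their reads were not assigned to a gene. Levels are in CPM, the usual scaling of a gene's counts to the library's total of gene counts, here with TMM factors. Where 2 values stand together for a group they are R1, then CGR8. A difference is the fitted log2 fold of LFAI at 4 days minus LIM with its standard error (SE), and a gene is called at an adjusted p under 0.05 (edgeR's quasi-likelihood test with Benjamini-Hochberg adjustment). Each group has n = 2, with cell lines as the replicates and 1 library of each line. The fit holds all 8 libraries of the set and takes out the steady difference between lines. The p-values thus measure the spread that is left, pooled over all conditions of the set, with 3 residual degrees of freedom. RNA of whole cultures was measured, so fewer cells of a type and less RNA per cell cannot be told apart.

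Of 15525 genes tested, 5091 were called (32.8%). Of these, 2163 were higher in LFAI at 4 days than in LIM (13.9% of those tested) and 2928 were lower (18.9%). Counts of list members below are to be read against these shares. The falls were also larger. The median log2 fold was -1.84 among genes that fell and 0.93 among genes that rose, against -0.01 over all tested genes. A log2 fold of -3 or less was called for 940 genes and one of 3 or more for 186. Both lines moved in the same direction in 5087 of the called genes, and in 12255 of all tested genes. The LFAI and LIM values did not overlap in 10639 of the tested genes (68.5%), so a lack of overlap, given below for single genes, was common and does not set a gene apart. The counts leaned on single libraries. Without the CGR8 LFAI library 967 genes were higher and 1691 lower, without the R1 LIM library 1000 and 2135, and without the CGR8 LIM library 1094 and 1902.

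**Figure D1:**
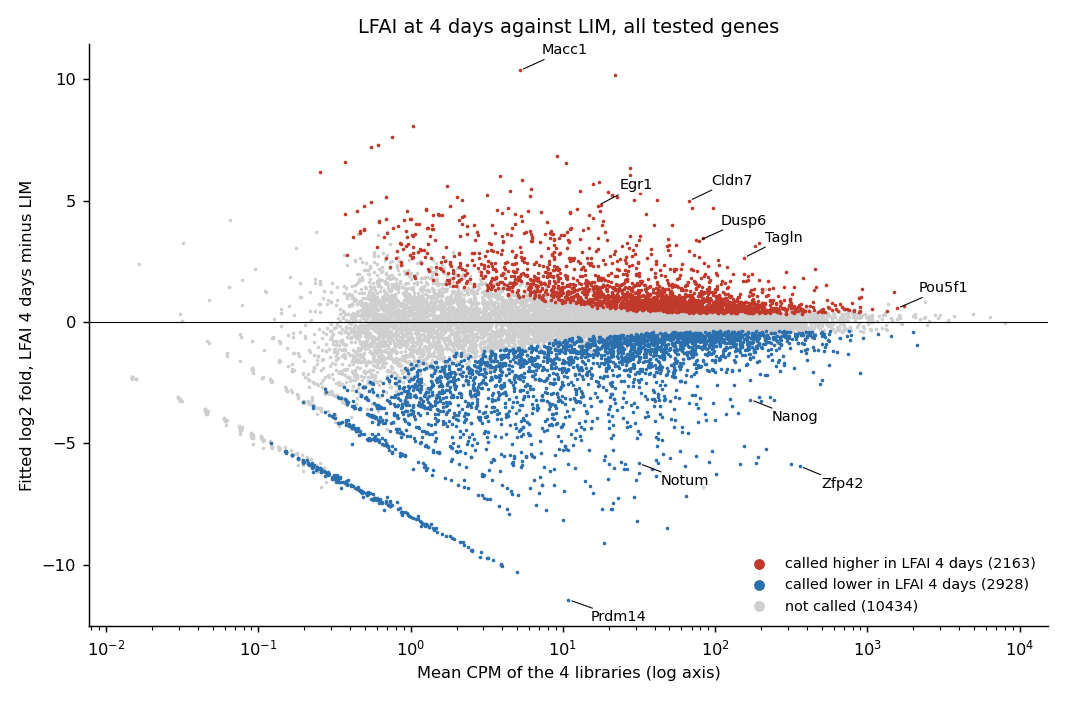
Fitted log2 fold of LFAI at 4 days minus LIM against expression level, 1 point per tested gene, with genes called higher or lower in colour and the others in grey. The 2928 lower genes reach further from 0 than the 2163 higher ones, and the diagonal lines of points at the lower left are genes with 0 or few counts in LFAI, whose fitted folds are no bounds.

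The largest rises were led by genes that were nearly silent in LIM. Macc1 had 15.1 and 5.82 CPM in LFAI and 0 counts in LIM, a level at least 115-fold higher over a floor of 3 counts in both LIM libraries together. Slc22a3, a transporter of organic cations, had 31.5 and 56.2 CPM in LFAI, against 0 and 0.059 CPM in LIM. It had 1 read in LIM, and its ratio was 1430 with an exact 95% counting interval of 256 to 56518. The phosphodiesterase gene Pde4b had 14.3 and 22.1 CPM in LFAI, against 0.13 and 0.18 CPM in LIM. Others were Mal2 (log2 fold 6.56), the glycosyltransferase gene Galnt3 (6.04), Gabrg3 (6.02), the immunoproteasome gene Psmb8 (5.87), Tmem54 (5.76) and Trim67 (5.71). Macc1 had an adjusted p of 0.1 by the Wald test of DESeq2. In each of these genes the lower LFAI library lay above the higher LIM library. At day 4 of the R1 time course described below, LFAI held little of Macc1 (0.28 CPM), Slc22a3 (0.50 CPM) and Gabrg3 (0.43 CPM). The other rises named here had 6.04 (Psmb8) to 22.45 CPM (Galnt3) in day 4 LFAI, against 0 to 0.30 CPM in day 4 LIM.

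The 10 largest fitted falls were genes with no read in either LFAI library, so their fitted folds are no bounds and only the bounds below are shown. Genes with reads in both groups can exceed most of these bounds, as Klf2 does with a log2 fold of -6.67. Prdm14, a factor that helps to hold the naive state, had 0 counts in LFAI, against 13.7 and 29.8 CPM in LIM, and was thus at least 228-fold lower. Cyp26a1, which degrades retinoic acid, had 0 counts in LFAI, against 16.3 and 3.75 CPM in LIM, at least 102-fold lower, but its adjusted p was 0.11 by the Wald test of DESeq2. The others were Lrrc31 (at least 83.1-fold lower), Crxos (at least 82.8-fold), Adgrf5 (at least 72.3-fold), the forebrain factor Six3 (at least 66.9-fold), Pga5 (at least 59.6-fold), Sytl3 (at least 61.5-fold), Pramel7 (at least 52.95-fold) and Six3os1 (at least 52.3-fold, with an adjusted p of 0.17 by the Wald test). Six3os1 is antisense to Six3 and the strand setting of the counting is not stated, so reads of that pair cannot be told apart. LIM at day 4 of the R1 time course described below held little of Cyp26a1 (0.23 CPM), Six3 (0.23 CPM) and Six3os1 (0.99 CPM). Their averages in the L2i libraries of the set were 0.033, 0.16 and 0 CPM. The other falls named here had 3.11 (Pga5) to 64.5 CPM (Prdm14) in day 4 LIM, against 0 to 0.99 CPM in day 4 LFAI.

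Among targets and feedback inhibitors of MEK and ERK, 12 of 24 were higher and 2 lower, with a median log2 fold of 1.14. Dusp6, a phosphatase that switches ERK off, had 164 and 120.0 CPM in LFAI, against 13.4 and 14.5 CPM in LIM (log2 fold 3.35 ± 0.22, adjusted p = 1.0e-05). Both LFAI libraries lay far above both LIM libraries. Egr1, an immediate early transcription factor, had 39.8 and 25.7 CPM in LFAI, against 1.44 and 0.89 CPM in LIM (4.8 ± 0.40, adjusted p = 4.2e-05). Etv4, an ETS factor downstream of ERK, had 77.5 and 57.4 CPM in LFAI, against 1.38 and 4.99 CPM in LIM (4.44 ± 0.43, adjusted p = 9.6e-05). The groups did not overlap in either gene. The inhibitors Spry4 (3.69 ± 0.40), Spred3 (3.55 ± 0.32), Dusp4 (2.16 ± 0.23) and Spry1 (1.98 ± 0.26) rose as well, as did Myc (1.6 ± 0.21). The list did not move as one. Etv5 had 442 and 382 CPM in LFAI, against 489.6 and 653 CPM in LIM, and was not called (adjusted p = 0.052), though it was called lower without the R1 LFAI library (adjusted p = 0.04) or the R1 LIM library (0.016). Rasgef1a, an exchange factor for small GTPases, fell to 0.13 and 0.78 CPM, against 13.7 and 7.37 CPM in LIM (-4.62 ± 0.71). The number of lower genes was 1 without the CGR8 LFAI or the CGR8 LIM library.

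Among FGF ligands and receptors, 4 of 17 were higher and 5 lower. Fgf5, the ligand that marks the postimplantation epiblast, had 159 and 146 CPM in LFAI, against 10.8 and 16.4 CPM in LIM (3.46 ± 0.40, adjusted p = 0.00028). Fgf15 also rose (2.21 ± 0.42). Fgf4, a ligand that embryonic stem cells make for themselves, fell to 99.3 and 75.5 CPM, against 165 and 243 CPM in LIM (-1.21 ± 0.21). The receptor gene Fgfr2 fell to 29.9 and 22.8 CPM, against 139 and 96.7 CPM in LIM (-2.15 ± 0.20). In these 4 genes the groups did not overlap. Fgfr1 had 187 and 169 CPM in LFAI, against 289 and 214 CPM in LIM, and was not called (adjusted p = 0.052), though it was called lower without the CGR8 LFAI library (0.031), the R1 library of LFAI at 35 h (0.047), the R1 L2i library (0.028) or the CGR8 L2i library (0.027). Without the CGR8 LFAI library 2 members were higher and 3 lower, and without the CGR8 LIM library 3 and 3.

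**Figure D2:**
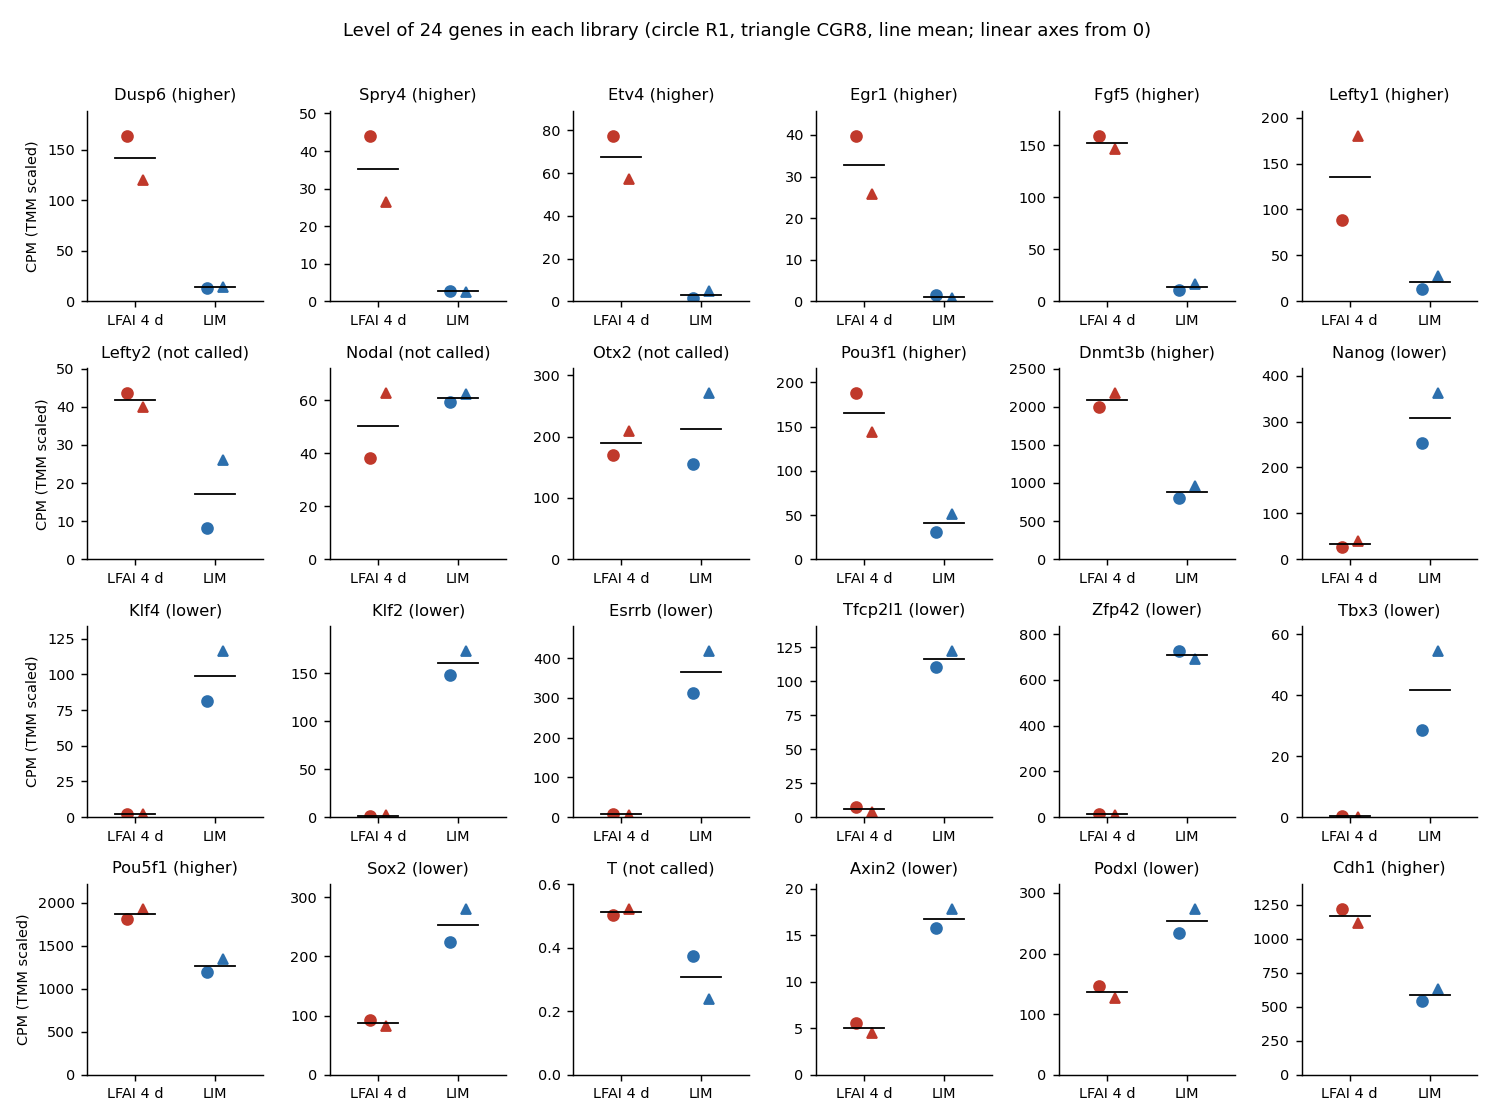
CPM of 24 genes in each of the 4 libraries, with LFAI at 4 days left of LIM in each plot and the lines R1 and CGR8 marked apart. The LFAI points of Dusp6, Spry4, Etv4, Egr1 and Fgf5 lie above both LIM points, those of Nanog, Klf4, Klf2, Esrrb, Tfcp2l1, Zfp42 and Tbx3 lie below them, and the groups overlap for Otx2 and Nodal.

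Activin A feeds the Nodal branch, and 4 of 9 targets of that branch were higher and 0 lower, with a median log2 fold of 1.27. Smad7 (2.23 ± 0.24) and Pmepa1 (2.13 ± 0.22), which dampen SMAD signalling, rose in both lines. Lefty1, a secreted Nodal antagonist, had 89.1 and 180.4 CPM in LFAI, against 13.8 and 27.9 CPM in LIM (2.69 ± 0.69, adjusted p = 0.016). That call was lost without the CGR8 LFAI library (adjusted p = 0.15) or the R1 LIM library (0.12). Lefty2 had 43.5 and 39.9 CPM in LFAI, against 8.14 and 26.0 CPM in LIM. The groups did not overlap, but it was not called (1.27 ± 0.71, adjusted p = 0.2) except in the fit of the 4 libraries alone (adjusted p = 0.013), without either L2i library (0.014 and 0.013) and with no filter on low counts (1.9e-11). Higher targets numbered 3 without the CGR8 LFAI library and 6 without either L2i library, and 1 target was lower without the CGR8 LIM library, where the median log2 fold was 2.20.

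Components of the Nodal and Activin pathway moved in both directions, 2 of 13 higher and 4 lower. The share of higher genes was close to the 13.9% over all tested genes. Nodal itself had 38.2 and 62.5 CPM in LFAI, against 59.2 and 62.3 CPM in LIM, with overlapping groups (-0.29 ± 0.21, adjusted p = 0.32). The related ligand gene Gdf3 fell (-1.72 ± 0.24), and so did Pcsk6 (-2.01 ± 0.30), while Furin rose (1.28 ± 0.19). Pcsk6 and Furin both encode convertases that cut the Nodal precursor. Lower members numbered 2 without the CGR8 LFAI library and 2 without the R1 LIM library, and 1 was higher without the CGR8 LIM library. In the BMP pathway, the sister branch through SMAD1 and SMAD5, 6 of 13 members were lower and 0 higher, with a median log2 fold of -1.47. The ligand gene Bmp4 fell to 1.26 and 1.11 CPM, against 17.3 and 14.9 CPM in LIM (-3.79 ± 0.45, adjusted p = 0.00033), with no overlap. The target genes Id1 (-2.16 ± 0.34), Id3 (-2.22 ± 0.33) and Id4 (-3.69 ± 0.65) fell too. Lower members numbered 4 without the CGR8 LFAI library, and that of higher members 1.

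Both media block Wnt secretion, and 3 of 14 targets of Wnt and beta-catenin were lower and 0 higher, a share of lower genes close to the 18.9% over all tested genes. At day 4 of the R1 time course described below, 11 of the 14 were higher in LFAI than in LIM (median log2 difference 0.71). Notum, which removes the lipid from Wnt ligands, fell to 1.39 and 0.78 CPM, against 62.7 and 61.6 CPM in LIM (-5.83 ± 0.22, adjusted p = 8.1e-07). The receptor gene Tnfrsf19 fell to 1.45 and 1.18 CPM, against 20.7 and 27.3 CPM in LIM (-4.17 ± 0.28). Axin2, a negative feedback regulator, fell to 5.54 and 4.51 CPM, against 15.8 and 17.8 CPM in LIM (-1.73 ± 0.22, adjusted p = 0.00051). In these 3 genes both LFAI values lay below both LIM values. The streak factor T, a Wnt target in the embryo, had 0.5 and 0.52 CPM in LFAI, against 0.38 and 0.24 CPM in LIM, and was not called (adjusted p = 0.52). Wnt ligands, receptors and modulators split into 5 higher and 7 lower of 20. The receptor gene Fzd7 rose (1.31 ± 0.17) and Fzd5 fell (-1.79 ± 0.17), and the ligand gene Wnt5a fell to 0.38 and 0 CPM, against 12.3 and 6.48 CPM in LIM. Higher members numbered 2 without the R1 LFAI, the CGR8 LFAI or the R1 LIM library, and 3 without the line as a block.

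All 24 genes of the naive list were lower in LFAI at 4 days, with a median log2 fold of -5.59, and this count stood at 24 without each of the 8 libraries in turn. Their levels summed to 303 and 329 CPM in LFAI, against 3973 and 4546 CPM in LIM. Zfp42, also known as Rex1, had 12.5 and 10.6 CPM in LFAI, against 725 and 691 CPM in LIM (-5.94 ± 0.18, adjusted p = 4.4e-07). The orphan receptor gene Esrrb had 8.37 and 4.44 CPM in LFAI, against 312 and 418 CPM in LIM (-5.80 ± 0.34). The groups were far apart in both. Among the Kruppel-like factors, Klf4 fell to 2.01 and 2.03 CPM, against 81.7 and 116 CPM in LIM, and Klf2 fell to 1.45 and 1.7 CPM, against 148 and 173 CPM in LIM. Nr5a2 (-7.21 ± 0.35), Tbx3 (-7.69 ± 0.86) and Tcl1 (-8.20 ± 0.53) fell further. Nanog was reduced rather than lost, with 27.0 and 40.1 CPM in LFAI, against 253 and 361 CPM in LIM (-3.20 ± 0.25, adjusted p = 2.9e-05). The smallest drops of the list were those of Klf5 (-1.87 ± 0.28) and Dppa5a (-2.02 ± 0.25).

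The core factors shared by naive and primed cells changed less, 2 of 12 higher and 8 lower, with a median log2 fold of -0.83. Their share of higher genes was near the 13.9% over all tested genes. Pou5f1, which encodes Oct4, had 1810 and 1926 CPM in LFAI, against 1190 and 1339 CPM in LIM (0.56 ± 0.16, adjusted p = 0.025). The groups did not overlap, yet the call was lost without the CGR8 LFAI library (adjusted p = 0.16) or the R1 LIM library (0.21). Sox2, its partner, fell to 92.3 and 81.9 CPM, against 224 and 279.9 CPM in LIM (-1.52 ± 0.15, adjusted p = 9.5e-05). Sall4 fell to 225 and 178 CPM, against 461 and 383 CPM in LIM (-1.07 ± 0.14). Utf1, a chromatin-bound factor of pluripotent cells, rose to 528 and 444 CPM, against 168 and 185 CPM in LIM (1.43 ± 0.28). All 4 genes were thus detected in every library of the comparison. Without the CGR8 LFAI or the R1 LIM library 1 member was higher.

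Markers of the early postimplantation epiblast were higher in 13 of 19 and lower in 1, with a median log2 fold of 1.14. Pou3f1, a POU factor, had 188 and 144 CPM in LFAI, against 31.3 and 50.6 CPM in LIM (1.95 ± 0.39, adjusted p = 0.0053). Lin28b, which blocks maturation of let-7, rose (1.51 ± 0.20), and so did Sall2 (1.70 ± 0.23) and Grhl2 (1.93 ± 0.38), a grainyhead factor of epithelia. Dnmt3b, a de novo DNA methyltransferase, had 1998 and 2175 CPM in LFAI, against 809 and 961 CPM in LIM (1.23 ± 0.24, adjusted p = 0.0049), and was not called without the R1 LIM library (adjusted p = 0.057). Otx2 did not separate the media, with 170.5 and 209 CPM in LFAI, against 156 and 271 CPM in LIM (-0.17 ± 0.31, adjusted p = 0.71). In the L2i libraries of the set Otx2 averaged 9.7 CPM. The 1 lower gene was Dnmt3l, the cofactor of Dnmt3a and Dnmt3b, with 10.7 and 10.5 CPM in LFAI, against 629.9 and 602 CPM in LIM (-5.86 ± 0.25, adjusted p = 1.4e-06). The number of higher genes was 8 without the CGR8 LFAI library and 7 without the R1 LIM library.

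LIF was present in both media, and 6 of 11 genes of its pathway were lower and 1 higher, with a median log2 fold of -1.01. The LIF receptor gene Lifr fell to 5.66 and 3.46 CPM, against 64.2 and 71.9 CPM in LIM (-3.88 ± 0.25, adjusted p = 1.0e-05). Its signalling partner Il6st, or gp130, fell to 39.3 and 27.8 CPM, against 118 and 125 CPM in LIM (-1.85 ± 0.21). Both receptor genes were lower in both lines. Bcl3 fell as well (-3.41 ± 0.54). Socs3, the feedback inhibitor that STAT3 induces, fell to 10.3 and 7.32 CPM, against 71.6 and 25.9 CPM in LIM (-2.47 ± 0.54, adjusted p = 0.0076). Leaving out the R1 LIM library took its adjusted p to 0.077. Stat3 itself had 72.3 and 67.2 CPM in LFAI, against 117 and 89.3 CPM in LIM, and was not called (adjusted p = 0.063), though it was called lower without the CGR8 LIM library (0.025) or either library of LFAI at 35 h (0.045 and 0.048). The number of lower genes was 4 without the R1 LIM library and 4 without the CGR8 LFAI library, and 0 were higher without the R1 LFAI or the CGR8 LIM library. The median log2 fold was -1.76 without the R1 LFAI library and -0.53 without the CGR8 LFAI library.

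In the DNA methylation machinery, 3 of 11 genes were higher and 5 lower. Tet2, which oxidises methylcytosine, fell to 2.9 and 2.35 CPM, against 49.5 and 70.0 CPM in LIM (-4.47 ± 0.28, adjusted p = 9.5e-06), and Tet1 fell to 230.3 and 176 CPM, against 673 and 524 CPM in LIM (-1.56 ± 0.20). Uhrf1, which brings the maintenance enzyme to replicated DNA, fell less (-1.15 ± 0.13). The number of higher genes was 0 without the R1 LIM library and 1 without the CGR8 LFAI library. Germline genes, some of which are silenced by promoter methylation in somatic cells, were lower in 12 of 16 and higher in 0, with a median log2 fold of -2.90. Tex19.1 fell to 7.99 and 8.76 CPM, against 116 and 176 CPM in LIM (-4.10 ± 0.18, adjusted p = 1.9e-06). Dazl, an RNA-binding protein of germ cells, fell to 0.94 and 1.76 CPM, against 8.45 and 24.8 CPM in LIM (-3.55 ± 0.45), and the X-linked gene Rhox5 fell too (-3.81 ± 0.27). The groups did not overlap in these 3 genes. Lower germline genes were fewest, 8, without the CGR8 LFAI or the CGR8 LIM library, and 1 was higher without the CGR8 L2i library. Genes of 2-cell-like cells, a rare state within such cultures, were lower in 5 of 10 and higher in 0, with a median log2 fold of -4.14, or -2.55 with genes at 0 counts put at their bound. Zscan4d, whose reads may be shared with its near-identical paralogs, had 0.19 and 0.26 CPM in LFAI, against 1.06 and 3.03 CPM in LIM (-3.29 ± 0.80, adjusted p = 0.013). Without the CGR8 LFAI library the median was -1.98, 0 of the 10 were called and Zscan4d had an adjusted p of 0.31, without the R1 LIM library 3 were, and without the line as a block 0.

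Of 19 tight junction and desmosome genes, 12 were higher and 1 lower, with a median log2 fold of 1.32. Cldn7, a claudin, had 135 and 126 CPM in LFAI, against 3.25 and 4.82 CPM in LIM (5.00 ± 0.36, adjusted p = 1.8e-05). Cldn6 had 372 and 337 CPM in LFAI, against 25.7 and 46.4 CPM in LIM (3.27 ± 0.35, adjusted p = 0.00018). Both LFAI libraries were well above both LIM libraries in each claudin. Marveld3 (4.83 ± 0.42), Marveld2 (3.01 ± 0.36) and Ocln (2.40 ± 0.48), membrane proteins of the junction strands, and the adhesion molecule gene Epcam (1.69 ± 0.26) rose. Cldn2, which forms pores for cations, went the other way and fell to 0 and 0.13 CPM, against 7.89 and 3.69 CPM in LIM (-6.25 ± 0.89). The number of higher genes was lowest, 9, without the R1 LFAI or the R1 LIM library, and 2 were lower without the R1 LFAI library.

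Apical polarity and lumen genes were higher in 7 of 19 and lower in 6. Ap1m2, an adaptor subunit for sorting in epithelial cells, had 136 and 134 CPM in LFAI, against 3.94 and 6.54 CPM in LIM (4.72 ± 0.22, adjusted p = 2.1e-06). Crb3, a crumbs protein of the apical side, had 68.8 and 80.2 CPM in LFAI, against 3.51 and 5.77 CPM in LIM (4.01 ± 0.25). The groups were widely separated in both, as in Mal2, a protein of apical transport that was also among the largest rises. Podxl, the sialomucin of the pro-amniotic lumen, was lower in LFAI, with 147 and 127 CPM, against 233 and 274 CPM in LIM (-0.89 ± 0.17, adjusted p = 0.004). Podxl averaged 15.9 CPM in the L2i libraries of the set and 90.9 CPM in those of LFAI at 35 h. The actin regulator Cobl (-2.16 ± 0.35) and the scaffold gene Slc9a3r2 (-2.24 ± 0.30) were lower in LFAI too. The number of higher genes was 4 without the R1 LFAI or the R1 LIM library.

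Of 15 genes of cadherins and of the epithelial to mesenchymal transition, 2 were higher and 7 lower, with a median log2 fold of -1.31 (-0.85 without the R1 LFAI library). Zeb1, a repressor of epithelial genes, fell to 1.89 and 0.98 CPM, against 50.9 and 29.0 CPM in LIM (-4.78 ± 0.32, adjusted p = 1.1e-05). Zeb2 (-4.89 ± 0.54), Snai1 (-3.52 ± 0.45), Vim (-1.75 ± 0.25) and the matrix gene Fn1 (-2.38 ± 0.24) fell as well. The 2 genes that rose make up a share of the list near the 13.9% over all tested genes. Esrp1, an epithelial splicing factor, had 191 and 192 CPM in LFAI, against 56.0 and 63.2 CPM in LIM (1.67 ± 0.26), and Cdh1, or E-cadherin, had 1220 and 1115 CPM in LFAI, against 541 and 630.4 CPM in LIM (0.99 ± 0.16, adjusted p = 0.002). The LFAI values of both were above all LIM values. Basement membrane and integrin genes were lower in 10 of 20 and higher in 1. Nid1, which links laminin to collagen IV, fell to 14.2 and 5.82 CPM, against 159 and 169.9 CPM in LIM (-4.03 ± 0.42), and the laminin genes Lama1 (-4.14 ± 0.78) and Lamc1 (-1.75 ± 0.28) and the integrin gene Itgb3 (-3.63 ± 0.49) fell with it. The number of lower genes was lowest, 7, without the CGR8 LFAI or the R1 LIM library. That of higher genes was 0 without the CGR8 LIM library or without the line as a block, and 2 without the CGR8 LFAI, the R1 LIM or either library of LFAI at 35 h.

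**Figure D3:**
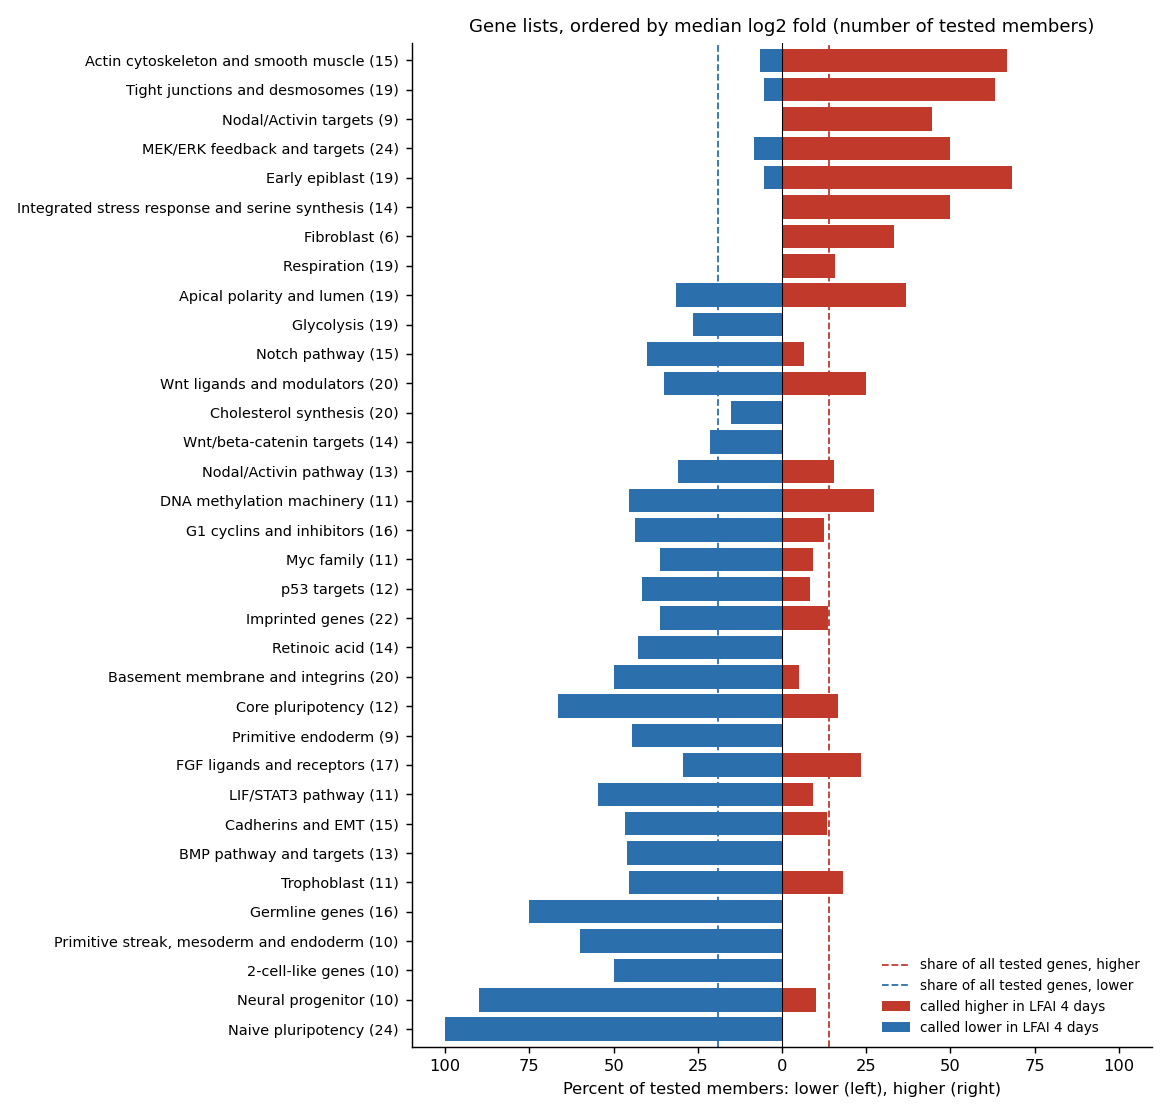
Percent of the tested members of each of 34 gene lists that were called lower or higher in LFAI at 4 days against LIM, with the shares over all tested genes, 13.9% higher and 18.9% lower, marked for comparison. The naive list stands at 24 of 24 lower, while the tight junction list has 12 of 19 higher.

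Contractile and actin cytoskeleton genes were higher in 10 of 15 and lower in 1, with a median log2 fold of 1.36. With the day 4 libraries of the time course added 5 were higher and 0 lower, and at day 4 alone the median log2 difference was 0.11. Tagln, an actin-binding protein of smooth muscle also called SM22, had 342 and 176 CPM in LFAI, against 79.4 and 19.2 CPM in LIM (2.65 ± 0.27, adjusted p = 0.00013). Cnn1, or calponin, had 83.4 and 39.3 CPM in LFAI, against 12.2 and 6.84 CPM in LIM (2.65 ± 0.25, adjusted p = 9.4e-05). In both genes R1 was higher than CGR8 within each medium, and LFAI was higher than LIM within each line. Tpm1 (1.45 ± 0.22) and Ccn1 (1.80 ± 0.39), a secreted matrix protein, rose, and Myl9, a myosin light chain, had 40.0 and 42.5 CPM in LFAI, against 19.5 and 12.4 CPM in LIM (1.41 ± 0.24). The number of higher genes was 6 without the CGR8 LFAI or the CGR8 LIM library, that of lower genes was 0 without each of the 4 libraries in turn, and Myl9 was not called without the CGR8 LFAI library (adjusted p = 0.071). In the L2i libraries of the set Tagln averaged 0.13 CPM and Cnn1 0.023 CPM.

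Promoters of these contractile genes can be read for the CArG box, the element that serum response factor binds: CC, then 6 bases that are each A or T, then GG. It was searched on both strands. Of the 15 tested members 13 had a promoter of 300 bases (250 before the start to 50 after it) in the RefSeq table for GRCm38.p6. 5 of these held a CArG box (38.5%), against 178 of 11259 tested genes with a promoter (1.6%) and 488 of 27025 genes of the table (1.8%). The list was chosen and is no random draw of genes, so this contrast is no test of the element. Among its members called higher, 3 of 8 held the element (37.5%), a share like that of the whole list. Vcl, for vinculin, links actin to adhesions and rose (0.77 ± 0.20, adjusted p = 0.016), as did Acta1, the skeletal actin (1.36 ± 0.38, adjusted p = 0.025). Actc1, the cardiac actin (1.86 ± 0.66, adjusted p = 0.056), and Cnn2, a calponin (0.55 ± 0.20, adjusted p = 0.056), were not called. Actc1 was called higher without either L2i library (0.044 each), and Cnn2 without the R1 LIM library (0.03) or either library of LFAI at 35 h (0.032 and 0.022). The promoters that carry the element are shown 5′ to 3′, with the CArG box in capitals.
Myl9 promoter (GRCm38.p6, chr2:156775214-156775513, plus strand): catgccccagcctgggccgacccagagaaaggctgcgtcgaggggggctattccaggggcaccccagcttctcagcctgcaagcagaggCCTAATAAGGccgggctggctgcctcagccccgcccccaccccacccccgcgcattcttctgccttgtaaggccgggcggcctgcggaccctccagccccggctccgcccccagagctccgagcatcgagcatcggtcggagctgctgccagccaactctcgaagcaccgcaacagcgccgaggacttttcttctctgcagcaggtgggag
Vcl promoter (GRCm38.p6, chr14:20929148-20929447, plus strand): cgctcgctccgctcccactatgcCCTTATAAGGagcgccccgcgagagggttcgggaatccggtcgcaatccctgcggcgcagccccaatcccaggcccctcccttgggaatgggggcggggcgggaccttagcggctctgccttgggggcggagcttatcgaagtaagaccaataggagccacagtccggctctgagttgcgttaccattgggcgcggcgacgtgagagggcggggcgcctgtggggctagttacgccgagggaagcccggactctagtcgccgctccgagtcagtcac
Acta1 promoter (GRCm38.p6, chr8:123894726-123895025, minus strand): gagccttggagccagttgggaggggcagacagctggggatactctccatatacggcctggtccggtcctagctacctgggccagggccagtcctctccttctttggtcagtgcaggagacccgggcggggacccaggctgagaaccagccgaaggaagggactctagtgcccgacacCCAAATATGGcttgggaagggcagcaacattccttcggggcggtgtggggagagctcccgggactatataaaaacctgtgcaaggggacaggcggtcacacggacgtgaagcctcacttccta
Actc1 promoter (GRCm38.p6, chr2:114052826-114053125, minus strand): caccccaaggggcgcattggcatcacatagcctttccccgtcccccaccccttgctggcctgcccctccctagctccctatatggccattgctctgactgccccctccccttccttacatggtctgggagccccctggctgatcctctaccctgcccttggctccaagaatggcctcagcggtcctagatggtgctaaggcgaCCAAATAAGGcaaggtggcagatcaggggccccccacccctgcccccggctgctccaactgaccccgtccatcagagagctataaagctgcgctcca
Cnn2 promoter (GRCm38.p6, chr10:79988350-79988649, plus strand): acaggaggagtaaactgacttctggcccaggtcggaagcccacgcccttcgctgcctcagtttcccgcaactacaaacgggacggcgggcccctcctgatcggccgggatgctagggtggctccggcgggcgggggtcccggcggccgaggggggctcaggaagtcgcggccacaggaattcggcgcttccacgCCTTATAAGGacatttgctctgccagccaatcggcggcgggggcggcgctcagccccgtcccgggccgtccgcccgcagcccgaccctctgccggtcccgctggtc
The element began 161 bases before the start in Myl9, 227 in Vcl, 73 in Acta1, 47 in Actc1 and 56 in Cnn2. Vcl was not called without the R1 LFAI library (adjusted p = 0.09) or the CGR8 LIM library (0.15), and the call of Acta1 was lost without each of the 4 libraries in turn (0.068 to 0.29). A match describes the letters and does not show binding. The STAT pattern TTCCNGGAA, searched likewise, was in the promoter of 1 of 11 tested genes of the LIF list, Cish, against 1.5% of tested genes. The grainyhead pattern AACNNGTT was in 0 of 13 junction genes, against 3.9% of tested genes, and the ETS pattern CCGGAAG in 0 of 16 MEK/ERK genes, against 18.9%.

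Neural progenitor genes were lower in 9 of 10 and higher in 1, with a median log2 fold of -4.25, or -3.73 with genes at 0 counts put at their bound. Ncam1, a neural adhesion molecule, fell to 2.45 and 3.53 CPM, against 86.6 and 71.5 CPM in LIM (-4.74 ± 0.28, adjusted p = 6.9e-06). Pax6, an eye and forebrain factor, fell to 1.51 and 0.59 CPM, against 57.7 and 25.9 CPM in LIM (-5.28 ± 0.34). LFAI was below LIM in both lines. The gene that rose was Nes, an intermediate filament of progenitors, with 578 and 366 CPM in LFAI, against 127 and 96.5 CPM in LIM (2.06 ± 0.15, adjusted p = 1.6e-05). The summed level of the 16 listed neural genes was 712 and 431 CPM in LFAI, against 503 and 395 CPM in LIM. The number of lower genes was 5 without the CGR8 LFAI library and 6 without the CGR8 LIM library.

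Genes of the primitive streak, mesoderm and endoderm were lower in 6 of 10 and higher in 0, and the 15 listed genes summed to 18.7 and 10.3 CPM in LFAI, against 52.1 and 32.5 CPM in LIM. Hhex, a factor of anterior endoderm, fell to 1.39 and 0.98 CPM, against 10.9 and 8.74 CPM in LIM (-3.06 ± 0.33). Primitive endoderm genes were lower in 4 of 9 and higher in 0, with summed levels of 718 and 526 CPM in LFAI, against 824 and 600.2 CPM in LIM. Their defining factor Gata6 had 0 and 0.065 CPM in LFAI, against 0.063 and 0.18 CPM in LIM. Trophoblast genes split into 2 higher and 5 lower of 11, with summed levels of 424 and 142 CPM in LFAI, against 206 and 157 CPM in LIM. Without the CGR8 LIM library 3 of them were lower, and 1 was higher without that library, the R1 LFAI, the R1 LIM or either L2i library, or without the line as a block. Tfap2c, a factor of trophoblast and germ cells, fell to 1.2 and 0.52 CPM, against 48.5 and 45.6 CPM in LIM (-5.75 ± 0.42), and the keratin gene Krt18 rose to 156 and 68.0 CPM, against 37.9 and 26.8 CPM in LIM (1.69 ± 0.20). Elf5, which defines trophoblast stem cells, had 0.063 and 0 CPM in LFAI, against 0.19 and 0.36 CPM in LIM. Fibroblast genes were higher in 2 of 6 and lower in 0, with summed levels of 45.8 and 38.8 CPM in LFAI, against 22.4 and 34.4 CPM in LIM, and 0 were higher without the CGR8 LIM library and 1 without each of the other 3. Without the R1 LFAI library 1 was lower. Without the R1 LIM library 1 primitive endoderm gene was higher. Gata6 and Elf5 were near 0 in all 4 libraries. The part of these marker levels in the other results was not tested.

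Of 19 glycolysis genes, 5 were lower and 0 higher. The glucose transporter gene Slc2a3 fell to 273 and 404 CPM, against 1309 and 1575 CPM in LIM (-2.12 ± 0.20, adjusted p = 8.3e-05), and the hexokinase gene Hk1 fell to 37.7 and 34.1 CPM, against 117 and 166 CPM in LIM (-1.96 ± 0.17). Pfkp (-3.09 ± 0.32), Ldhb (-1.78 ± 0.15) and Slc2a1 (-1.19 ± 0.13) also fell. The list summed to 8585 and 10962 CPM in LFAI, against 7541 and 15804 CPM in LIM, so the LIM libraries differed from each other. Without the CGR8 LIM library 5 genes were higher and 5 lower. The integrated stress response and serine synthesis list had 7 of 14 higher and 0 lower, with a median log2 fold of 0.84. Phgdh, the first enzyme of serine synthesis, had 244 and 262 CPM in LFAI, against 77.5 and 75.9 CPM in LIM (1.73 ± 0.25, adjusted p = 0.00092). The cystine transporter gene Slc7a11 had 14.3 and 17.1 CPM in LFAI, against 1.63 and 1.13 CPM in LIM (3.61 ± 0.52). The LFAI values of both lay above both LIM values. The number of higher genes was 4 without the CGR8 LFAI or the R1 LIM library, and 1 was lower without the R1 LIM library. The median was 0.37 without the CGR8 LFAI library, and with the day 4 libraries of the time course added 2 were higher and 1 lower (median 0.36). Respiration had 3 higher of 19, near the share of 13.9% over all tested genes, and 0 lower. Cholesterol synthesis had 3 lower of 20, near the share of 18.9%, and 0 higher. Neither count was stable when single libraries were left out. The median log2 fold then ran from 0.08 (without the CGR8 LFAI library) to 0.31 (without the R1 LFAI library) for respiration. For cholesterol synthesis it ran from -0.27 (without the R1 LFAI library) to -0.10 (without the CGR8 LFAI library).

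Among G1 cyclins and inhibitors, 2 of 16 were higher, a share near the 13.9% over all tested genes, and 7 lower. The kinase gene Cdk6 rose (1.54 ± 0.26), and the inhibitor genes Cdkn2a (-2.22 ± 0.39), Cdkn2b (-2.0 ± 0.38) and Cdkn2c (-2.65 ± 0.50) fell. The number of lower genes was 4 without the R1 LFAI or the R1 LIM library, and that of higher genes 1 without the CGR8 LFAI, the R1 LIM or the CGR8 LIM library. In the MYC network 1 of 11 was higher, Myc itself, and 4 lower, among them the antagonists Mga (-0.87 ± 0.13) and Mxd3 (-1.23 ± 0.24). Of 12 targets of p53, 5 were lower and 1 higher, a count of lower genes that was 1 without the R1 LFAI library, 3 without the CGR8 LFAI library and 2 without the R1 LIM library. That of higher genes was 2 without the R1 LFAI library or the CGR8 library of LFAI at 35 h, and 0 without the CGR8 LIM library. Notch pathway genes were lower in 6 of 15 and higher in 1. Notch3 had 266 and 322 CPM in LFAI, against 94.96 and 133 CPM in LIM (1.38 ± 0.13, adjusted p = 7.1e-05). The receptor gene Notch1 fell to 45.2 and 28.4 CPM, against 167 and 126 CPM in LIM (-2.0 ± 0.26). Rbpj, the DNA-binding partner of Notch receptors, fell as well (-1.32 ± 0.13). Of 14 retinoic acid genes, 6 were lower and 0 higher, among them the receptor gene Rara (-1.53 ± 0.18), the binding protein gene Crabp2 (-1.25 ± 0.18) and Aldh1a2 (-3.35 ± 0.58), an enzyme that makes retinoic acid.

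Imprinted genes were lower in 8 of 22 and higher in 3, a share of higher genes near the 13.9% over all tested genes. H19, a non-coding RNA, had 5.92 and 0.98 CPM in LFAI, against 241 and 51.6 CPM in LIM (-5.51 ± 0.31, adjusted p = 5.3e-06), and its neighbour Igf2, a growth factor, had 8.31 and 3.46 CPM in LFAI, against 157 and 47.3 CPM in LIM (-4.03 ± 0.35). In both genes R1 exceeded CGR8 within each medium, and the groups did not overlap. Peg10 (-3.08 ± 0.36) and Peg3 (-2.20 ± 0.24), both expressed from the paternal allele, fell as well. The number of lower genes was 5 and of higher genes 0 without the R1 LIM library, and 1 was higher without the R1 LFAI library. Without the line as a block 1 was higher and 6 lower.

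An R1 time course in the same series holds LFAI and LIM libraries that were both taken on day 4 after 2i, with 1 library each, a coating of gelatin and fetal calf serum and another sequencing protocol. It has the same media at equal time, and its values are a description with no replicate check. Among genes at 1 CPM or more there, 1759 of 2084 genes called higher were also higher in day 4 LFAI than in day 4 LIM (84.4%), and 2331 of 2762 called lower were lower (84.4%), against 49.2% and 50.8% of all 14342 genes. Their median day 4 differences were 0.53 and -0.83 on the log2 scale. Across the 14342 genes the log2 folds of both sets had a Pearson r of 0.556. R1 and CGR8 within the set had 0.836 across 15525 genes, but these r values are on unlike measures. The first sets fitted folds against differences of log2 CPM with a prior count of 2 added, which damps genes of few reads. The second uses such damped differences on both sides. Genes are not independent replicates, and the R1 cells of both sets share a line.

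Dusp6 had 101 CPM in day 4 LFAI and 14.7 CPM in day 4 LIM. Of the 24 naive genes, 22 were lower in day 4 LFAI, with a median log2 difference of -3.77, and Zfp42 had 48.1 CPM in day 4 LFAI and 1209 CPM in day 4 LIM. Both genes and the list thus pointed the same way at equal time. The medians of the early epiblast (1.91) and junction lists (1.19) were positive in both sets, and Dnmt3b had 2168 CPM in day 4 LFAI and 184 CPM in day 4 LIM.

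Other groups pointed the other way at equal time. The germline list had a median log2 difference of 1.67 at day 4 and was higher in day 4 LFAI in 11 of 16 genes, and 5 of its 12 called genes were lower there. The 2-cell-like list had a median of 4.17, and Zscan4d had 49.6 CPM in day 4 LFAI and 3.11 CPM in day 4 LIM. Imprinted genes were higher in day 4 LFAI in 19 of 22, with H19 at 7.67 CPM in day 4 LFAI and 1.82 CPM in day 4 LIM. The stress response and serine list had a median of -0.68. The medians of the BMP (0.18), FGF (0.45), Wnt target (0.71), trophoblast (0.95), primitive endoderm (0.27) and cholesterol lists (0.43) were positive at day 4 and negative in the set with both lines, and that of respiration (-0.11) was negative at day 4 and positive in the set. With genes at 0 counts put at their bound, the trophoblast median in the set was only -0.10, against -2.28 from the fitted folds. That of the Wnt targets was then -0.08. The actin and contractile list kept 6 of its 11 called genes in the same direction, with a median of 0.11. The streak, mesoderm and endoderm list had a median of -0.27 at day 4, against -3.35 in the set. Of its 10 tested genes, 5 were higher and 5 lower in day 4 LFAI. Podxl had 108 CPM in day 4 LFAI and 54.9 CPM in day 4 LIM, Axin2 had 23.5 CPM in day 4 LFAI and 6.75 CPM in day 4 LIM, and Myl9 had 2.77 CPM in day 4 LFAI and 4.17 CPM in day 4 LIM. These 3 genes also went against their direction in the set with both lines. So did Pou5f1, with 1329 CPM in day 4 LFAI and 1641 CPM in day 4 LIM. Tagln kept its direction at a lower level, with 4.19 CPM in day 4 LFAI and 0.68 CPM in day 4 LIM, and Dnmt3l had 172 CPM in day 4 LFAI and 190.5 CPM in day 4 LIM. When both day 4 libraries were added to the fit, with a term for the experiment, several lists lost calls. The germline list then had 4 genes lower, the imprinted list 0, the 2-cell-like list 0, the cadherin list 3, the core list 5, the primitive endoderm list 2 and the p53 list 3. The naive list had 22 lower, the neural list 7, the streak list 4 and the BMP list 4. Junction genes called higher numbered 9. In the same fit 1 gene was higher in the core list, 1 in the Nodal pathway, 1 among G1 genes, 1 in respiration, 2 among p53 targets and 2 in cholesterol synthesis. Of the single genes, 19 of the 148 genes named here were no longer called. They were Axin2 (adjusted p = 0.53), Podxl (0.58), Id1 (0.53), Ccn1 (0.51), Peg10 (0.42), Pou5f1 (0.34), Socs3 (0.3), Zeb2 (0.19), Tpm1 (0.16), Myl9 (0.15), Slc2a1 (0.15), Snai1 (0.14), H19 (0.12), Id3 (0.081), Vcl (0.077), Peg3 (0.071), Igf2 (0.068), Gabrg3 (0.056) and Furin (0.051). Zscan4d turned to a log2 fold of 0.10. The coating, the sequencing protocol, the time in LIM and the passages differ together between the sets and cannot be told apart. The R1 LFAI libraries of day 4 also differed between the sets. Dnmt3l had 10.7 CPM in the set with both lines and 172 CPM in the time course, and Slc22a3 had 31.5 and 0.50 CPM. Dnmt3b was alike in them, at 1998 and 2168 CPM. The part of each difference between the sets was not tested.

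**Figure D4:**
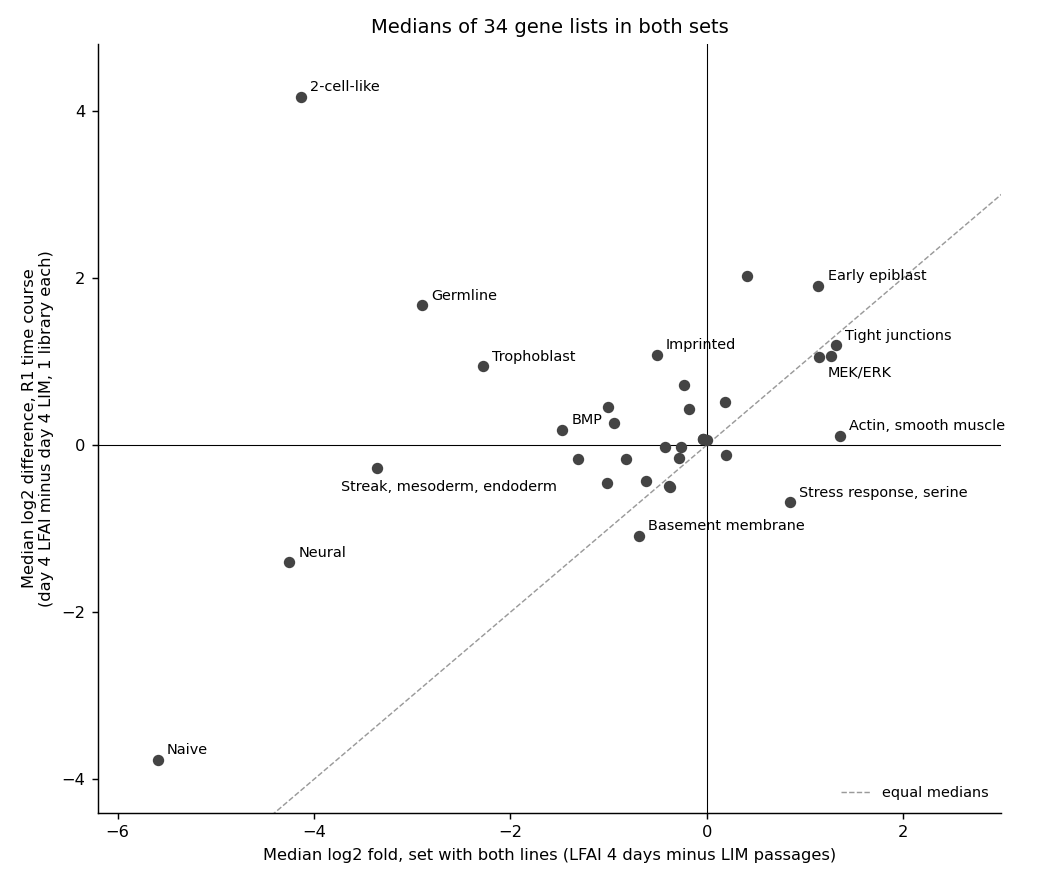
Median log2 difference of each of 34 gene lists in the R1 time course, day 4 LFAI minus day 4 LIM with 1 library each, against its median log2 fold in the set with both lines, LFAI at 4 days minus LIM. The naive list is low in both sets, at -3.77 and -5.59, while the 2-cell-like list is at 4.17 in the time course and -4.14 in the set with both lines. With genes at 0 counts put at their bound, that -4.14 becomes -2.55. The time course differences are of log2 CPM with a prior count of 2 added, which damps genes of few reads more than the fit does.

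Chromosome 8 differed between libraries of R1. Against the mean of the 8 libraries, its genes had a median log2 level of -0.07 in R1 LFAI at 4 days, against 0.22 in R1 LIM. The other R1 libraries were at 0.21 (L2i) and 0.17 (LFAI at 35 h), and the CGR8 libraries between -0.18 and -0.04. The median LFAI minus LIM difference of its genes was -0.25 in R1 and 0.01 in CGR8, against 0.02 to 0.09 in R1 and -0.03 to 0.20 in CGR8 for the other autosomes. Of its 794 tested genes 8.3% were called higher and 22.9% lower, against 14.3% and 18.7% of genes on other chromosomes. Of the genes named here Zfp42, Klf2, Trim67, Dusp4, Cdh1, Marveld3, Acta1 and Fgfr1 lie there. Within CGR8 alone, where the shift was smaller than in R1, the log2 differences were -6.01 for Zfp42, -6.57 for Klf2, 4.90 for Trim67, 2.29 for Dusp4, 0.82 for Cdh1, 4.21 for Marveld3, 1.66 for Acta1 and -0.34 for Fgfr1. DNA copy number was not measured, and the part of this shift in other calls was not tested.

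**Figure D5:**
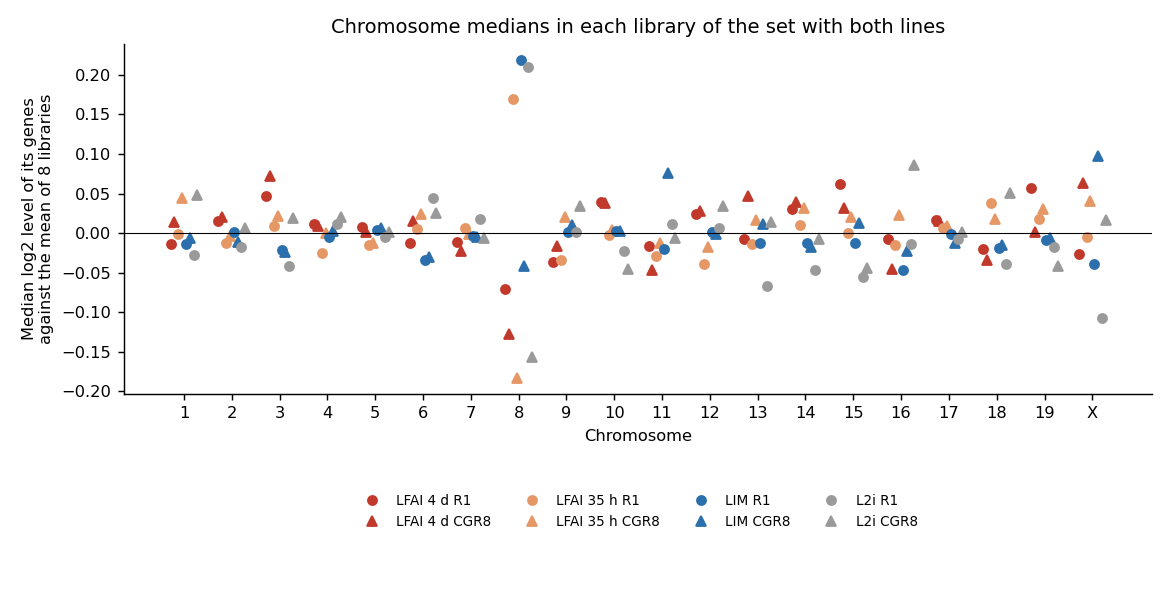
Median log2 level of the genes of each chromosome against the mean of 8 libraries, for each library of the set with both lines. Chromosome 8 is at -0.07 in R1 LFAI at 4 days, against 0.22 in R1 LIM.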

How the data were processed

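Raw read counts per gene were deposited for each library. Per the labels' protocols these are stranded mRNA libraries sequenced on a HiSeq2500. Per the submitters' processing notes, HISAT2 2.0.4, HTSeq 0.6.1, DESeq2 1.10.1 and the build GRCm38 were used; the strand setting and annotation release are not given in the sources used here. The 5 summary entries of each file were left out of library sizes, and 47.7 to 51.5% of reads in the 4 libraries were not assigned to a gene. Ensembl IDs were given gene names from GENCODE M21 (47224 of 47729 matched). No pair of libraries held identical values.

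The R1 and CGR8 set of 8 libraries entered 1 edgeR fit (version 4.0.16, R 4.3.3, filterByExpr, TMM factors of 0.964 to 1.033, quasi-likelihood test, 3 residual degrees of freedom), with terms for the condition and the cell line, and the contrast LFAI at 4 days minus LIM was adjusted by Benjamini-Hochberg over 15525 genes. Replicate 1 is R1 and replicate 2 is CGR8, so replicate numbers pair libraries of the same cell line; the R1 minus CGR8 differences of LFAI and LIM had a correlation of 0.20 across genes. Depths of 15298852 to 16304195 gene counts limit genes of few reads, and counting intervals and the floor of 3 counts cover counting error only. Other normalisations, filters, tools (DESeq2 1.42.0, limma 3.58.1), sample sets and the omission of each library were tried.

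The comparison, the 34 gene lists and the 24 panel genes were chosen with earlier results of these data known. Genes named are the panel, the 10 largest called changes each way with a mean of at least 5 CPM and a gene name that is not predicted, members with the smallest p in each list, and other list members given as values. Some of the genes under this rule are not reported here.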

Additional observations from a re-analysis of the deposited data

How the results depend on the processing

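Each group held 1 library per line, so the line block leaves 3 residual degrees of freedom and a single library weighs heavily. Across the fits that each left out 1 of 8 libraries, 967 to 2071 genes were higher and 1691 to 2949 lower; where this left LFAI or LIM with 1 library, that library was assumed to vary like the other groups. Without the replicate block for the paired lines, 1913 genes were higher and 2671 lower, and among the named genes the calls of Acta1 and Zscan4d were lost. Tested against a log2 fold of 1, 350 genes were higher and 1146 lower, because small changes cannot pass that test. The counts under the DESeq2 Wald test, limma-voom, size factors of DESeq2, genes of low counts kept in, the 4 libraries alone and the added day 4 libraries lay between 1734 and 2368 higher and 2404 and 3463 lower.

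Of 148 named genes, 5 changed sign of the log2 fold under at least 1 setting, and of these Zscan4d was called in the reported fit. Without 1 library at a time, the log2 fold of Otx2 ran from -0.67 to 0.48 (0.03 without the R1 LFAI library), the log2 fold of Nodal from -0.665 to 0.036 and the log2 fold of T from -0.13 to 1.62. With the day 4 libraries added the log2 fold of Cnn2 was -0.017 and the log2 fold of Zscan4d 0.10. The cause was not tested.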
